A study of Mus musculus with 6 samples.

Results

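The 9 genes examined here encode the mitochondrial tricarboxylic acid (TCA) cycle enzymes *Cs*, *Idh2*, *Idh3a*, *Ogdh*, *Suclg1*, *Sdha*, *Fh1* and *Mdh2*, and the itaconate-forming enzyme *Acod1*. They were taken as a list of named genes, with the RefSeq transcript of the highest total count standing for each gene, and are 9 of 24562 gene symbols in the count table. All 9 had enough counts to be among the 11470 genes tested. RNA came from unstimulated (naive) bone marrow-derived macrophages (BMDMs) of C57BL/6J mice, in 3 control and 3 AclyM-KO libraries. Controls carried *Acly* fl/fl alleles without Cre, and AclyM-KO cells carried the same floxed alleles with LysMcre, in which the *Lyz2* promoter drives Cre in myeloid cells. *Acly* encodes ATP citrate lyase, which cleaves cytosolic citrate into acetyl-CoA and oxaloacetate. No library was stimulated, all cells were grown with L929-conditioned medium as the source of macrophage growth factor. The labels give neither age nor sex for these libraries, and the study describes the bone marrow of its cell culture work as that of male and female young adult mice. The replicates are described in the study as technical replicates of cells pooled from 3 mice, so p-values here measure the spread between libraries and not between mice.

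In the TCA cycle, citrate synthase joins acetyl-CoA to oxaloacetate, and successive enzymes oxidise citrate through 2-oxoglutarate, succinate, fumarate and malate back to oxaloacetate, delivering electrons to the respiratory chain. Citrate that leaves the mitochondrion feeds ATP citrate lyase, so the enzymes that make and regenerate citrate lie directly upstream of the deleted enzyme. In macrophages activated by bacterial products, *Acod1* is strongly induced and diverts cis-aconitate from the cycle into itaconate, which inhibits succinate dehydrogenase. Naive macrophages are known for low *Acod1* expression.

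*Acly* itself, the targeted gene, was at 220.4, 233.0 and 235.8 CPM (counts relative to the TMM-scaled library size) in control replicates 1, 2 and 3 and at 93.3, 98.9 and 98.3 CPM in the AclyM-KO replicates. It was lower in every AclyM-KO library (log2 fold change -1.25, SE 0.066, adjusted p = 5.58e-07, edgeR quasi-likelihood test). The counts cover the whole transcript, of which only a floxed part is removed. Whether the residual counts come from the remaining exons or from cells that escaped removal was not tested. Over all genes, 1416 of 11470 passed an adjusted p of 0.05 in either direction (12.3%), 768 of them higher (6.7%) and 648 lower (5.65%) in AclyM-KO, and the median log2 fold change of all genes was 0.000259. In 3766 genes (32.8%) the libraries of both groups did not overlap, and in 1866 (16.3%) all AclyM-KO libraries were above all control libraries. Total counts with 1 transcript per gene lay between 11120034 and 13598887 in 5 libraries, and AclyM-KO replicate 2 had 25814853. That library also differed more from its replicates. The chi-square per degree of freedom of its counts against the other AclyM-KO replicates was 22.8 and 24.4, against 8.59 between AclyM-KO replicates 1 and 3 and 3.26 to 6.82 between controls. This value was taken on counts at full depth and can grow with depth, so depth and composition are not separated in it. Where leaving it out changed a call on a listed gene, or turned or moved a member's log2 fold change by over 1.5 times, that value is given as well. The fit without it called 2136 of 11554 genes (18.5%). At an unadjusted p under 0.05, 27.3% of all tested genes passed in the main fit. The list counts below are to be read beside these shares.

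The promoters of 3 members are shown because these genes mark the range of the data: *Sdha* had the highest level per transcript length, *Acod1* the lowest, and *Mdh2* was the member that passed the test. Each window spans 250 bases before to 50 after the annotated start, 5′ to 3′ on the gene's strand, from RefSeq on GRCm38.p6. The *Sdha* window lies at chr13:74350191-74350490 on the minus strand, that of *Mdh2* at chr5:135778399-135778698 and that of *Acod1* at chr14:103046762-103047061, both on the plus strand. Capitals mark matches to GCGCANGCG (an NRF1 motif) in *Sdha* and to CGGAAG (an ETS core) in *Mdh2*, and no searched motif matched in *Acod1*.
Sdha: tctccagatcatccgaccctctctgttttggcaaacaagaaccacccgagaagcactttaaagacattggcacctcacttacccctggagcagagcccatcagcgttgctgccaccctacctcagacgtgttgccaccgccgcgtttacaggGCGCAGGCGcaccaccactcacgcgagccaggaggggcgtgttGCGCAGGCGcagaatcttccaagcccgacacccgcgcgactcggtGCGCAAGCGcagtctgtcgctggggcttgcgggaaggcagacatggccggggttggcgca
Mdh2: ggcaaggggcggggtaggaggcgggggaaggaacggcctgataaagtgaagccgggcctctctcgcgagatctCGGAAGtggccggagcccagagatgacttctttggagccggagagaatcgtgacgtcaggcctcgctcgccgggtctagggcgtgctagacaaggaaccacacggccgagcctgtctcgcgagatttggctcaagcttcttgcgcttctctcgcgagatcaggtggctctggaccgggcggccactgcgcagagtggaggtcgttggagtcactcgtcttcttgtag
Acod1: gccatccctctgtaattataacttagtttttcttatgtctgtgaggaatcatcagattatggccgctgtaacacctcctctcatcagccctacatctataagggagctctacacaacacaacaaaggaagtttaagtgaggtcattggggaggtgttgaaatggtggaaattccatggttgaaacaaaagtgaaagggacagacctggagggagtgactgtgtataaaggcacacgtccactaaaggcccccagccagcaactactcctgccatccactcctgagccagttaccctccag

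Windows were found for 8 of the 9 members, and *Idh3a* had none. The *Idh2* window (chr7:80115301-80115600, minus strand) lies inside the gene span of chr7:80094845-80118608 and not at its 5′ end. Matches in it refer to that annotated start only. Besides the *Acod1* window, with a GC content of 47% and 2 CpG dinucleotides, the members' windows had 51.0% to 68.3% GC and 14 to 27 CpG. Over all 32851 windows the medians were 52.7% GC and 7 CpG. On both strands, GCGCANGCG was in *Sdha* alone among the members, at 3 places, and in 6.25% of all windows. The ETS core CGGAAG was in *Idh2*, *Ogdh*, *Fh1* and *Mdh2*, and in 16.9% of all windows. The NF-kappaB motif GGGANNNTCC was in *Idh2* and in 4.59% of all windows, and the interferon-response motif GAAANNGAA in *Suclg1* and in 8.56%. These are matches of letters only, and no motif overlapped another in these windows.

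Of the 9 members, 1 gene, *Mdh2*, was higher in AclyM-KO macrophages and 0 were lower at an adjusted p of 0.05, which compares with 12.3% of all tested genes. At an unadjusted p of 0.05, *Cs* and *Mdh2* were higher and 0 were lower, where 27.3% of all tested genes passed. DESeq2 called 1 member (11.2% of all genes with an adjusted p) and limma-voom 2 (19.1%), 0 of them lower. The members' median log2 fold change was 0.10. Libraries of both groups did not overlap in 4 members, with *Cs*, *Sdha* and *Mdh2* higher and *Idh2* lower in AclyM-KO, where 32.8% of all genes did not overlap. *Mdh2* encodes mitochondrial malate dehydrogenase, which oxidises malate to the oxaloacetate that citrate synthase consumes. It lies at chr5:135778649-135790386 on the plus strand of GRCm38 and has 9 exons. *Mdh2* was at 96.2, 94.7 and 96.4 CPM in control replicates 1, 2 and 3 and at 116.6, 112.8 and 124.1 CPM in AclyM-KO replicates 1, 2 and 3. The controls lay within a narrow range, and all AclyM-KO libraries were above it. The mean rose from 95.8 ± 0.923 to 117.8 ± 5.77 CPM (SD, n = 3 each), 1.23-fold (95% interval 1.11 to 1.36, log2 fold change 0.30, SE 0.068, edgeR adjusted p = 0.0156). The call was lost without control replicate 1, 2 or 3 (adjusted p = 0.0763, 0.0822 and 0.0764) and without AclyM-KO replicate 3 (adjusted p = 0.0527), although the log2 fold change stayed between 0.26 and 0.33 in all leave-one-out fits.

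**Figure D1:**
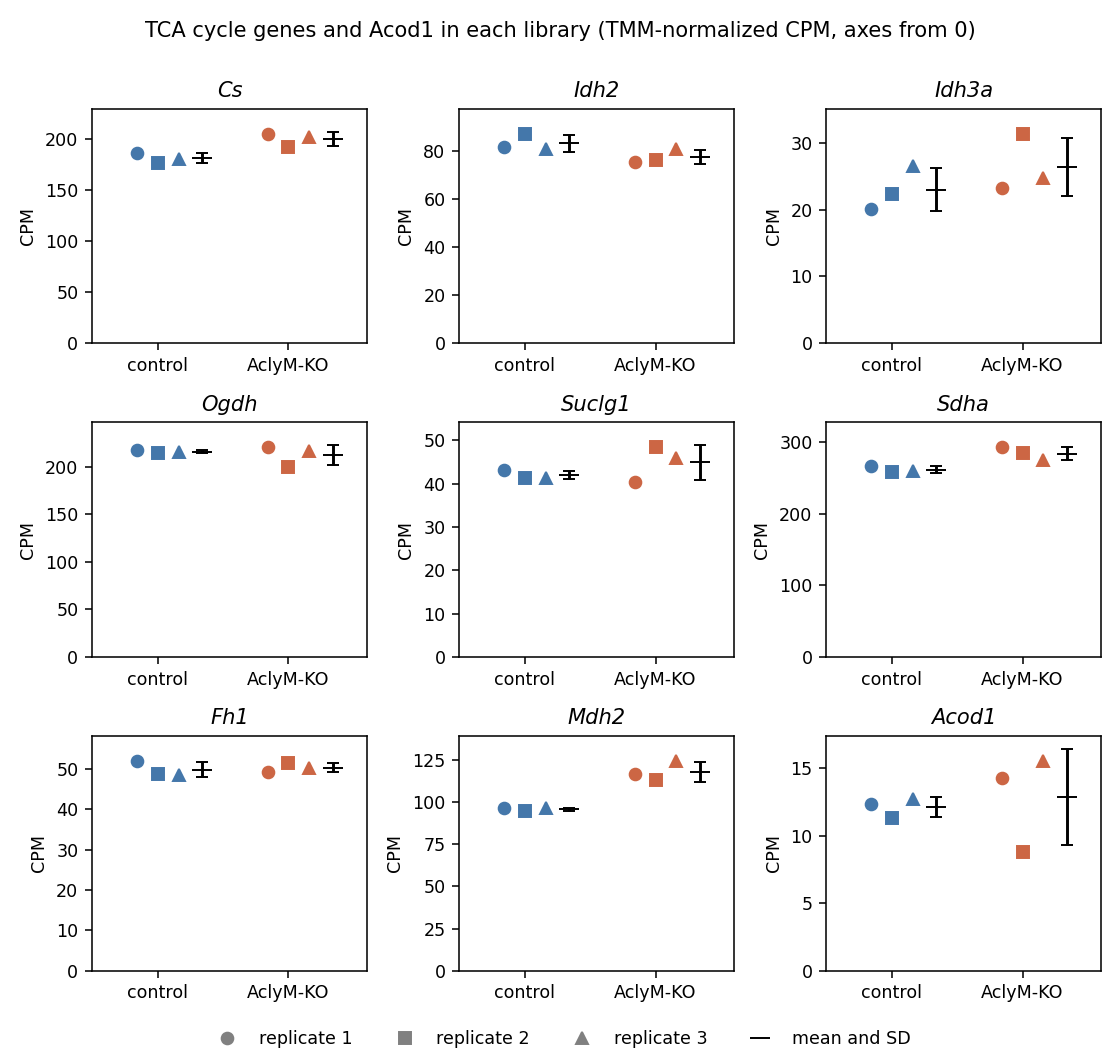
TMM-normalized CPM of each member in each library, with circles, squares and triangles for replicates 1, 2 and 3, control in blue and AclyM-KO in orange, and the mean with its SD in black. All axes start at 0. The AclyM-KO points of *Mdh2* (112.8 to 124.1 CPM) sit above all control points (94.7 to 96.4 CPM), while *Acod1* AclyM-KO replicate 2 lies below all the other libraries.

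Citrate synthase, encoded by *Cs* at chr10:128337727-128362482, catalyses the entry of acetyl-CoA into the cycle and makes the citrate that ATP citrate lyase later cleaves. *Cs* was at 186.2, 176.6 and 180.5 CPM in control and at 204.8, 192.1 and 201.9 CPM in AclyM-KO replicates 1, 2 and 3. All AclyM-KO libraries were above all control libraries. The log2 fold change was 0.14 (SE 0.064, 95% interval 0.000349 to 0.28) with an edgeR adjusted p of 0.182. Without AclyM-KO replicate 2 it was 0.17 with an edgeR adjusted p of 0.0266, in a fit that called 2136 of 11554 genes (18.5%). With limma-voom and sample weights *Cs* also passed (log2 fold change 0.16, adjusted p = 0.0430), where 19.1% of all genes did.

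The oxidation of isocitrate is carried out by the NADP-dependent enzyme of *Idh2* (chr7:80094845-80118608) and by the NAD-dependent enzyme whose catalytic subunit is encoded by *Idh3a* (chr9:54586511-54604662). *Idh2* was at 81.5, 87.1 and 80.8 CPM in control and at 75.5, 76.3 and 80.7 CPM in AclyM-KO replicates 1, 2 and 3. The AclyM-KO libraries were all lower, but AclyM-KO replicate 3 lay just under control replicate 3. Its log2 fold change was -0.10 (95% interval -0.26 to 0.05, edgeR adjusted p = 0.385). *Idh3a* was at 20.1, 22.4 and 26.5 CPM in control and at 23.2, 31.4 and 24.7 CPM in AclyM-KO libraries. These groups overlapped, with AclyM-KO replicate 2 above the rest, and the log2 fold change was 0.22 (95% interval -0.08 to 0.52, edgeR adjusted p = 0.348). Without AclyM-KO replicate 2 it was 0.06 (edgeR adjusted p = 0.765). *Idh3a* varied more between replicates than the other cycle members, with a coefficient of variation of 14.1% in control and 16.5% in AclyM-KO.

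*Ogdh* (chr11:6291597-6359094) encodes the decarboxylating subunit of the 2-oxoglutarate dehydrogenase complex, and *Suclg1* (chr6:73248505-73276907) encodes the alpha subunit of succinyl-CoA synthetase, which carries out substrate-level phosphorylation. *Ogdh* was at 217.1, 214.7 and 215.8 CPM in control and at 220.2, 199.9 and 216.1 CPM in AclyM-KO replicates 1, 2 and 3. The controls differed by little (coefficient of variation 0.547%), and the AclyM-KO libraries lay on both sides of them. The log2 fold change of *Ogdh* was -0.03 (95% interval -0.17 to 0.12, edgeR adjusted p = 0.838), and its sign turned without AclyM-KO replicate 2 (0.0175), with total counts as the only scaling (0.00797) and with limma-voom (0.00276). *Suclg1* was at 43.1, 41.4 and 41.4 CPM in control and at 40.5, 48.4 and 45.98 CPM in AclyM-KO libraries. AclyM-KO replicate 1 was the lowest and replicate 2 the highest of all libraries, and the log2 fold change was 0.10 (95% interval -0.09 to 0.30, edgeR adjusted p = 0.498). Without AclyM-KO replicate 2 it was 0.05 (edgeR adjusted p = 0.755). *Ogdh* has 5 RefSeq transcripts in the table, whose counts were close to each other (2342 to 2387 in control replicate 1), and a read on a shared exon can be counted in each, whereas the other members have 1 transcript each.

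*Sdha* (chr13:74322255-74350240) encodes the flavoprotein subunit of succinate dehydrogenase, which is also complex II of the respiratory chain, and *Fh1* (chr1:175601378-175625635) encodes fumarase, which hydrates fumarate to malate. *Sdha* was at 266.5, 258.2 and 258.9 CPM in control and at 292.2, 283.8 and 274.9 CPM in AclyM-KO replicates 1, 2 and 3. The groups did not overlap, and the log2 fold change was 0.12 (95% interval -0.02 to 0.25, edgeR adjusted p = 0.240). *Fh1* was at 51.8, 48.7 and 48.5 CPM in control and at 49.1, 51.4 and 50.3 CPM in AclyM-KO libraries. The AclyM-KO range of *Fh1* lay within the control range, with a log2 fold change of 0.02 (95% interval -0.15 to 0.18, edgeR adjusted p = 0.912). Without AclyM-KO replicate 2 it was 0.00226, and without control replicate 3 it was -0.000514.

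*Acod1* (chr14:103047012-103056573, 5 exons) encodes aconitate decarboxylase, which produces itaconate. It had 136, 151 and 141 raw counts in control and 164, 233 and 178 in AclyM-KO replicates 1, 2 and 3, the lowest counts of any member. These corresponded to 12.4, 11.3 and 12.7 CPM in control and to 14.3, 8.80 and 15.5 CPM in AclyM-KO. AclyM-KO replicates 1 and 3 were above all controls, and AclyM-KO replicate 2 was below all of them. The coefficient of variation was 27.8% in AclyM-KO and 6.17% in control. The log2 fold change was 0.05 (SE 0.194, 95% interval -0.37 to 0.47, edgeR adjusted p = 0.901), and the 95% interval of the fold ran from 0.773 to 1.39. Its direction depended on single libraries. The log2 fold change was 0.30 without AclyM-KO replicate 2 (adjusted p = 0.0992), -0.05 without AclyM-KO replicate 1 and -0.11 without AclyM-KO replicate 3.

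**Figure D2:**
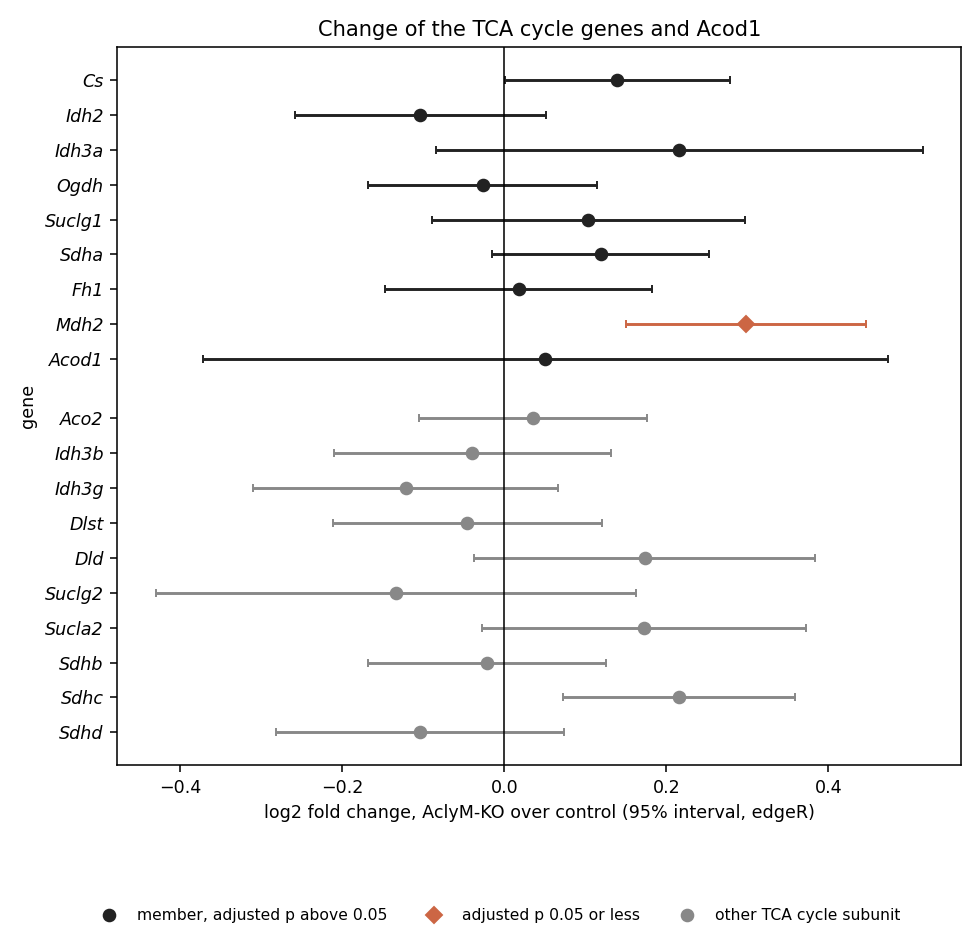
Log2 fold change of AclyM-KO over control on the horizontal axis, with 95% intervals from edgeR, for the 9 members (black, or an orange diamond at an adjusted p of 0.05 or less) and 10 other TCA cycle subunits (grey). The interval of *Mdh2* runs from 0.15 to 0.45, those of the other members but *Cs* cross 0, and that of *Acod1* is the widest among the members.

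Changes of one member relative to another do not depend on how libraries were scaled. The ratio of *Mdh2* to *Sdha* counts was 0.361, 0.367 and 0.372 in control and 0.399, 0.398 and 0.452 in AclyM-KO replicates 1, 2 and 3. The ratio of *Mdh2* to *Idh2* counts was 1.18, 1.09 and 1.19 in control and 1.54, 1.48 and 1.54 in AclyM-KO. In both ratios the groups did not overlap. *Mdh2* and *Idh2* each separated the groups already, in opposite directions, so their ratio had to separate them and adds no support. The ratio of *Idh3a* to *Idh2* counts overlapped between the groups. The ratio of *Cs* to *Sdha* counts was 0.684 to 0.699 in control and 0.677 to 0.734 in AclyM-KO, and overlapped. The ratio of *Cs* to *Acly*, the mRNAs of the citrate-making and the citrate-cleaving enzyme, went from 0.790 ± 0.0481 in control to 2.06 ± 0.127 in AclyM-KO (SD, n = 3 each). *Acly* is the targeted gene and no member, so its fall largely sets this shift by design. *Cs* alone did not pass (log2 fold change 0.14, edgeR adjusted p = 0.182).

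Levels of different genes were compared per transcript length, as CPM divided by the transcript length in kilobases (RPKM). The order of the mean level over 6 libraries was *Sdha* (93.9 RPKM), *Mdh2* (73.3), *Cs* (65.1), *Ogdh* (51.8), *Idh2* (46.02), *Suclg1* (28.6), *Fh1* (19.0), *Idh3a* (10.3) and *Acod1* (4.76). Each of the 6 libraries had this same order. The ranges over libraries overlapped between the neighbours *Mdh2* and *Cs* and between *Ogdh* and *Idh2*, and not between the other neighbours. *Sdha* was thus at 19.7 times the level of *Acod1* per length. In control libraries *Mdh2* was at 65.8 ± 0.634 RPKM against 61.9 ± 1.66 for *Cs*, and in AclyM-KO it was at 80.9 ± 3.96 against 68.2 ± 2.29 (SD, n = 3).

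Subunits of the same complex differed in level per length. In the NAD-dependent isocitrate dehydrogenase, the catalytic *Idh3a* was at 9.58 ± 1.35 RPKM in control, while the other subunits *Idh3b* and *Idh3g* were at 58.1 ± 2.26 and 50.1 ± 0.966 RPKM. In succinate dehydrogenase, *Sdha* was at 90.1 ± 1.59, the iron-sulfur subunit *Sdhb* at 78.0 ± 1.98, and the membrane anchors *Sdhc* and *Sdhd* at 36.8 ± 1.25 and 80.1 ± 4.76 RPKM. *Suclg1* was at 27.6 ± 0.646 RPKM, with its ATP-forming partner *Sucla2* at 23.0 ± 0.871 and its GTP-forming partner *Suclg2* at 4.45 ± 0.246 RPKM. *Ogdh* was at 52.3 ± 0.286 RPKM, beside *Dlst* at 39.9 ± 0.791 and *Dld* at 38.4 ± 2.31 (SD, n = 3 for each). These RPKM values depend on the annotated length of the 1 transcript used for each gene.

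**Figure D3:**
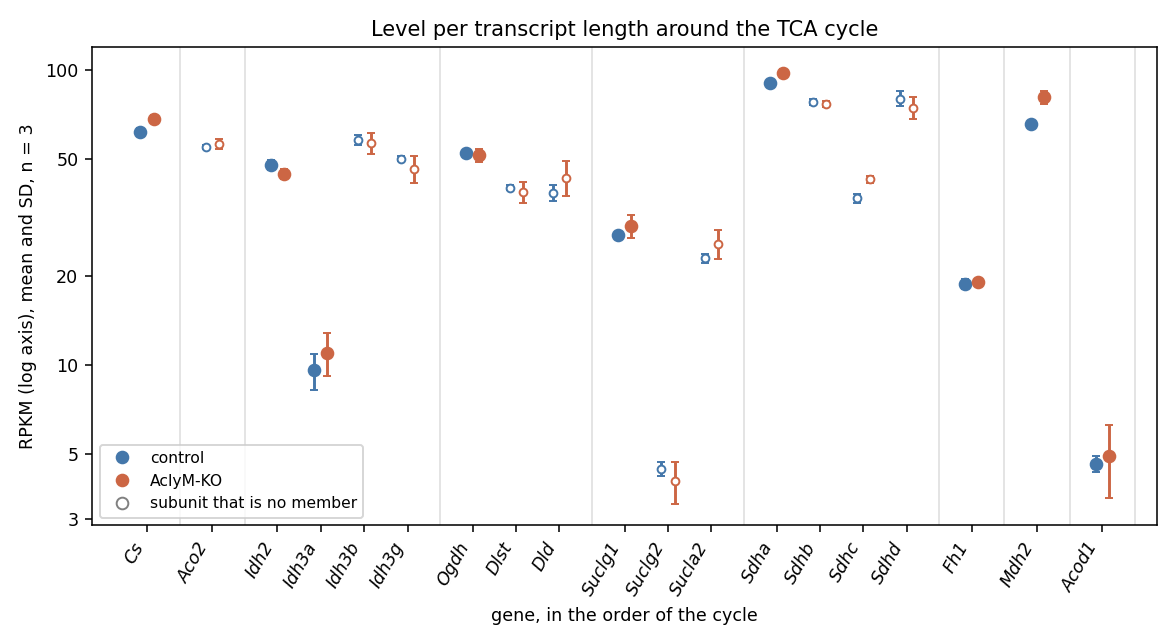
RPKM on a log axis for the 8 TCA cycle members (filled), 10 other cycle subunits (open circles) and *Acod1*, in the order of the cycle, as mean and SD of 3 control (blue) and 3 AclyM-KO (orange) libraries. *Idh3a* at 9.58 RPKM in control lies well under *Idh3b* at 58.1, and *Mdh2* shows the clearest distance between the groups.

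Of the 10 other TCA cycle subunits, 0 passed the edgeR threshold, with log2 fold changes from -0.13 to 0.22 and a median of -0.03. At an unadjusted p of 0.05, 1 passed (*Sdhc*), and DESeq2 called 0 and limma-voom 1. *Sdhc*, a membrane anchor of succinate dehydrogenase, was singled out after its values were seen. It was at 114.0, 121.1 and 114.5 CPM in control and at 139.4, 131.9 and 135.1 CPM in AclyM-KO replicates 1, 2 and 3, without overlap. Its log2 fold change was 0.22 (SE 0.066) with an edgeR adjusted p of 0.0531, and 0.24 with an edgeR adjusted p of 0.00548 without AclyM-KO replicate 2. It also passed with total counts only (edgeR adjusted p = 0.0298), with at least 10 counts in every library (0.0496), with AclyM-KO replicate 2 thinned (0.0460) and with limma-voom (0.01002). The 4 succinate dehydrogenase assembly factors had 0 genes past the threshold with edgeR, DESeq2 and limma-voom, and 1 at an unadjusted p of 0.05 (*Sdhaf3*, log2 fold change -0.75, edgeR adjusted p = 0.108). Over the 8 TCA members together, summed CPM was 943.9 to 962.6 in control and 996.0 to 1022 in AclyM-KO, and over the 10 other subunits 889.3 to 915.1 and 905.9 to 935.3. Abundant genes weigh most in these sums. The mean CPM rose most for *Sdha* (261.2 to 283.6), *Mdh2* (95.8 to 117.8) and *Cs* (181.1 to 199.6), while *Idh2* and *Ogdh* fell. The sum thus does not show a rise of all members.

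Among genes that carry pyruvate into the cycle, 12 of 13 were tested (*Pdk4* was not), 1 was higher and 1 lower. *Pdp2*, a phosphatase that activates the complex, was at 22.5, 21.2 and 21.9 CPM in control and at 35.9, 31.7 and 33.4 CPM in AclyM-KO (log2 fold change 0.62, SE 0.094, edgeR adjusted p = 0.00189). *Pdk2*, a kinase that inhibits the complex, was at 23.0, 19.4 and 18.9 CPM in control and at 14.5, 8.69 and 14.4 CPM in AclyM-KO (log2 fold change -0.74, SE 0.184, edgeR adjusted p = 0.0229). Neither gene's groups overlapped. The other tested kinases and phosphatase subunits of pyruvate dehydrogenase did not pass, with log2 fold changes of 0.03 for *Pdk1*, -0.15 for *Pdk3*, 0.09 for *Pdp1* and -0.12 for *Pdpr*. At an unadjusted p of 0.05, where 27.3% of all tested genes passed, 3 of the 12 did. *Mpc1*, a subunit of the mitochondrial pyruvate carrier, was the third. *Mpc1* was at 17.4, 18.2 and 18.8 CPM in control and at 11.2, 15.9 and 14.2 CPM in AclyM-KO, without overlap (log2 fold change -0.37, edgeR adjusted p = 0.0948), and it passed without AclyM-KO replicate 2 (-0.51, edgeR adjusted p = 0.00767). DESeq2 called 2 genes of the list and limma-voom 3. The *Pdk2* call was lost without control replicate 1, 2 or 3 (adjusted p = 0.107, 0.0634 and 0.0610), and its log2 fold change was -0.49 without AclyM-KO replicate 2.

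Of the anaplerosis and glutamine genes, 9 of 11 were tested (*Me3* and *Gls2* were not), and 2 were higher (3 genes at an unadjusted p of 0.05). *Pcx*, pyruvate carboxylase, makes oxaloacetate from pyruvate, the same product as *Mdh2*. It was at 1.73, 2.32 and 2.17 CPM in control and at 4.53, 4.46 and 5.15 CPM in AclyM-KO (log2 fold change 1.17, SE 0.208, edgeR adjusted p = 0.00452), from 19 to 31 counts in the control libraries. *Slc1a5*, a glutamine transporter, was at 26.7, 23.9 and 23.6 CPM in control and at 34.2, 35.9 and 32.0 CPM in AclyM-KO (log2 fold change 0.47, SE 0.096, edgeR adjusted p = 0.00890). That call was lost without control replicate 2 or 3 (adjusted p = 0.0568 in both).

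Citrate export and the cytosolic counterparts of the cycle had 3 higher and 2 lower of 9 tested genes, *Acly* among the latter. *Slc25a1*, the mitochondrial citrate carrier, was at 69.0, 67.3 and 69.5 CPM in control and at 97.0, 90.9 and 101.6 CPM in AclyM-KO (log2 fold change 0.49, SE 0.072, edgeR adjusted p = 0.00156). *Me1*, cytosolic malic enzyme, was at 2.27, 2.77 and 2.17 CPM in control and at 5.05, 7.86 and 5.85 CPM in AclyM-KO (log2 fold change 1.40, SE 0.226, edgeR adjusted p = 0.00252). *Got1*, the cytosolic aspartate aminotransferase, was at 96.1, 88.0 and 88.5 CPM in control and at 76.1, 63.9 and 74.7 CPM in AclyM-KO (log2 fold change -0.35, SE 0.084, edgeR adjusted p = 0.0197), a call lost without control replicate 1, 2 or 3 (adjusted p = 0.109, 0.0623 and 0.0702). *Mdh1*, the cytosolic form of malate dehydrogenase, had a log2 fold change of 0.22 (edgeR adjusted p = 0.0466), lost when any library other than AclyM-KO replicate 2 was left out (adjusted p = 0.0522 to 0.172), with DESeq2 (adjusted p = 0.0596), with no filter on low counts (0.0581) and with the replicate block (0.0580). The *Mdh2* to *Mdh1* count ratio was 0.684 to 0.714 in control and 0.671 to 0.804 in AclyM-KO, and overlapped.

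**Figure D4:**
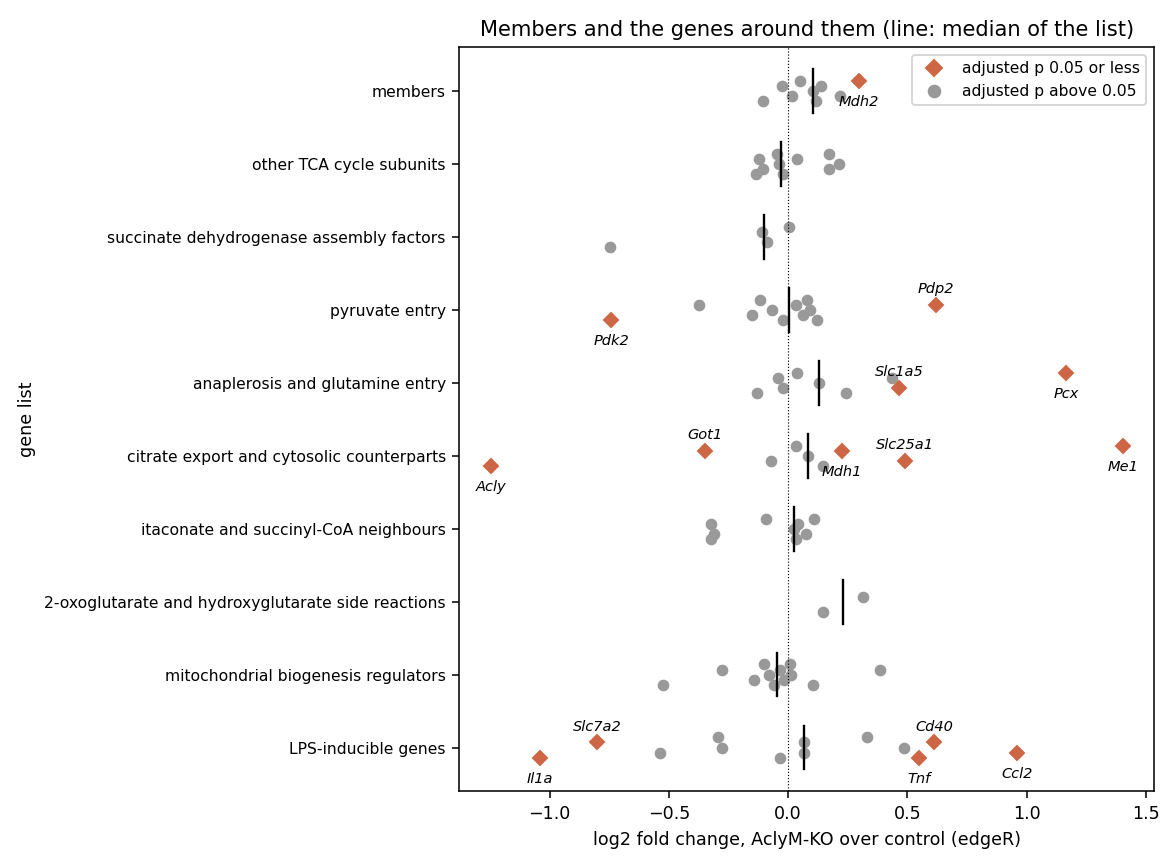
Log2 fold change of AclyM-KO over control for every tested gene of the members and the 9 lists around them, 1 row per list, with orange diamonds at an adjusted p of 0.05 or less and a black line at each list's median. *Me1* at 1.40 and *Acly* at -1.25 are the outermost points, and the members lie between -0.10 and 0.30.

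The neighbours of itaconate and succinyl-CoA had 0 of 9 genes past the edgeR threshold, with log2 fold changes from -0.32 to 0.11. At an unadjusted p of 0.05, where 27.3% of all tested genes passed, 2 of the 9 did, *Auh* and *Abcg2*, the latter an itaconate exporter. Both had a log2 fold change of -0.32 (edgeR adjusted p = 0.102 and 0.172). DESeq2 called 0 genes of the list and limma-voom 1. Without AclyM-KO replicate 2, *Abcg2* passed (-0.49, edgeR adjusted p = 0.0188). The 2-oxoglutarate and hydroxyglutarate side reactions had 0 of 2 past it (*Adhfe1*, *Ogdhl* and *Dhtkd1* were not tested), and the regulators of mitochondrial biogenesis 0 of 12 (*Ppargc1a* was not tested). Unadjusted, 1 and 2 genes of these lists had a p under 0.05, and DESeq2 and limma-voom called 0 in both. Over all 9 lists, 9 genes were higher and 5 lower of 80 tested, with a median log2 fold change of 0.0065. Of all tested genes, 12.3% passed in either direction, 6.7% higher and 5.65% lower.

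*Acod1* is known as an LPS-inducible gene, and the LPS-inducible list had 3 genes higher and 2 lower of 13 tested (8 genes at an unadjusted p of 0.05). *Il1b*, *Il6*, *Il12b*, *Nos2* and *Ptgs2* did not pass the filter on low counts. The chemokine *Ccl2* was at 40.6, 48.4 and 47.8 CPM in control and at 67.0, 131.4 and 64.0 CPM in AclyM-KO (log2 fold change 0.96, SE 0.226, edgeR adjusted p = 0.0178). The co-stimulatory receptor *Cd40* had a log2 fold change of 0.61 (edgeR adjusted p = 0.0417) and the cytokine *Tnf* 0.55 (edgeR adjusted p = 0.0357). The cytokine *Il1a* had a log2 fold change of -1.04 (edgeR adjusted p = 0.0103) and the arginine transporter *Slc7a2* -0.80 (edgeR adjusted p = 0.0195). Each of these calls was lost without at least 1 library. This held for *Ccl2* without control replicate 1, 2 or 3 (adjusted p = 0.0835, 0.0589 and 0.0601), for *Il1a* without control replicate 1 (0.0667) and for *Slc7a2* without control replicate 1 or 3 or AclyM-KO replicate 3 (0.103, 0.0699 and 0.0535). It also held for *Tnf* when any library other than AclyM-KO replicate 1 was left out (adjusted p = 0.0516 to 0.149) and for *Cd40* when any library other than AclyM-KO replicate 3 was (adjusted p = 0.0532 to 0.140). Without AclyM-KO replicate 2, the log2 fold change of *Ccl2* was 0.52, that of *Tnf* 0.37 (edgeR adjusted p = 0.0516) and that of *Cd40* 0.49 (edgeR adjusted p = 0.0979). With DESeq2, *Ccl2* and *Cd40* did not pass (adjusted p = 0.0605 and 0.108). With limma-voom and with AclyM-KO replicate 2 thinned, *Cd40* did not pass either (adjusted p = 0.0567 and 0.0585).

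Of the lists that mark cell types and proliferation, the macrophage, proliferation and mast cell sums differed between the groups without overlap, and the others overlapped. All 7 macrophage markers were expressed, and 3 were lower in AclyM-KO, *Lyz2* (log2 fold change -1.05), *Mertk* (-0.67) and *Csf1r* (-0.48), with summed CPM of 21470 to 22460 in control and 12440 to 15060 in AclyM-KO. Most of the difference in that sum was *Lyz2*, at a mean of 13310 CPM in control and 6437 CPM in AclyM-KO, the gene whose promoter drives Cre in AclyM-KO cells only. The cause of the lower *Lyz2*, *Mertk* and *Csf1r* was not tested. *Adgre1*, *Cd68*, *Itgam* and *Fcgr1* did not pass the edgeR test (log2 fold changes 0.07, 0.01, 0.00114 and -0.18). *Fcgr1* passed without AclyM-KO replicate 2 (-0.30, edgeR adjusted p = 0.00202) and with limma-voom (-0.25, adjusted p = 0.0106). The *Csf1r* call was lost without control replicate 1, 2 or 3 or AclyM-KO replicate 3 (edgeR adjusted p = 0.137, 0.0906, 0.127 and 0.0769). It was also lost with all transcripts of a symbol summed (edgeR adjusted p = 0.0516). The log2 fold change of *Csf1r* was -0.30 without AclyM-KO replicate 2. Of 10 proliferation markers, 9 were higher (9 without AclyM-KO replicate 2, and 4 and 5 without control replicates 1 and 2), and the list's summed CPM was 630.8 to 727.4 in control and 869.8, 1228 and 934.7 in AclyM-KO replicates 1, 2 and 3. AclyM-KO replicate 2 thus had the highest proliferation sum, and the lowest *Acod1* of all libraries. The summed CPM of neutrophil markers was 27.5 to 31.1 in control and 28.7 to 30.5 in AclyM-KO, of dendritic cell markers 0.632 to 1.55 and 0.696 to 1.57, and of stromal markers 0.541 to 1.72 and 0.348 to 1.22. Lymphocyte markers summed to at most 0.299 CPM, with *Cd3e* and *Cd3g* at 0, and erythroid markers to at most 0.0872 CPM. In the mast cell list, summed CPM was 9.49 to 10.5 in control and 18.8 to 23.9 in AclyM-KO, almost all of it *Kit*, while *Fcer1a* and *Ms4a2* were at 0. The part of proliferation, of *Kit*-expressing cells and of AclyM-KO replicate 2 in the members' values was not tested, beyond leaving out that library. In bulk RNA, fewer cells of a type and less RNA per cell cannot be told apart.

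The genes whose level across the 6 libraries was most like *Acod1* were *Ipo13* (Pearson r = 0.987), *Cxcl10* (0.987), *Hira* (0.985), *Zfp710* (0.983) and *Rhbdf2* (0.982), out of 11461 genes compared. *Cxcl10*, an interferon-inducible chemokine, was at 6.64, 5.75 and 7.13 CPM in control and at 7.66, 3.93 and 8.29 CPM in AclyM-KO replicates 1, 2 and 3, with AclyM-KO replicate 2 lowest as for *Acod1*. For the mean centred log2 CPM of the 8 TCA members, which was -0.05, -0.06 and -0.03 in control and 0.01, 0.07 and 0.06 in AclyM-KO, they were *Gpr141* (0.997), *Dennd5b* (0.996), *Pts* (0.994), *Birc5* (0.994) and *Rtn4rl1* (0.993). *Birc5*, survivin, is also on the proliferation list. These correlations describe 6 libraries that share genotype and depth differences, and were chosen as the highest of many.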

How the data were processed

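RNA of unstimulated BMDMs was sequenced from strand-specific mRNA libraries. The authors aligned reads to mm10 with STAR (CASAVA 1.8.2 and STAR 2.5.2b in the submitters' processing notes), filtered on mapping quality and deposited raw counts per RefSeq transcript from HOMER2 at its default settings, without normalization or pooling. The RefSeq release is not given in the sources used here, and strand use is described only by those defaults. Of 12 columns of values, 6 belong to the libraries described and 6 were not used. Of 35745 transcripts, 35440 were named from a RefSeq gene table, 188 from GENCODE M21 and 117 kept their accession.

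Counts were compared with edgeR 4.0.16 in R 4.3.3 (TMM, filterByExpr, quasi-likelihood test, genotype only), with Benjamini-Hochberg adjustment over 11470 genes and a threshold of 0.05. CPM used TMM-scaled totals and RPKM divided these by transcript length. Exact permutation tests of 3 against 3 libraries cannot go below p = 0.1. Depth was 19327459 to 44507233 counts per library over all transcripts. The 9 members and all lists were chosen with earlier results of these data known. The text names all members, *Acly*, for each list the genes past the threshold (at most 4 in full) and, chosen after their values were seen, some that passed under another setting or unadjusted or belong to the same enzyme, and the 5 genes most like *Acod1* and most like the cycle members' mean. Alternatives were other tools (DESeq2 1.42.0, and voom of limma 3.58.1 with sample weights), other scaling (RLE, or totals alone), other filters (none, or 10 counts in each library), a replicate block, leave-one-out fits, summed transcripts, AclyM-KO replicate 2 thinned, and a threshold of 0.01.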

Additional observations from a re-analysis of the deposited data

How the results depend on the processing

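Calls over all genes, 1416, went to 2187 with limma-voom (1077 lower), to 557 at a threshold of 0.01 (343 higher, 214 lower) and to between 598 and 2136 when a library was left out, with 363 to 1105 higher and 235 to 1031 lower. Among these leave-one-out fits, the 3 lowest counts came without a control library, and the highest without AclyM-KO replicate 2. Members past the threshold, 1 by edgeR, were 2 with limma-voom (*Cs* and *Mdh2*), 0 at 0.01 and 0 to 2 in leave-one-out fits. *Mdh2* passed in 11 of 15 refits, with log2 fold changes of 0.26 to 0.33 in leave-one-out fits. *Cs* passed with limma-voom (0.16) and without AclyM-KO replicate 2, and its leave-one-out range was 0.12 to 0.17. *Ogdh* turned positive with total counts only (0.00797), limma-voom (0.00276) and without AclyM-KO replicate 2 (leave-one-out range -0.0588 to 0.0175). *Fh1* turned to -0.000514 without control replicate 3 (range to 0.0475), and *Acod1* ranged from -0.11 to 0.30, negative (-0.05) also without AclyM-KO replicate 1. The cause of these changes was not tested. Pathway calls, 14 in all, were 6 to 15 in leave-one-out fits (4 to 10 higher, 1 to 7 lower) and 6 at 0.01 (5 higher, 1 lower). Of the 14 named pathway genes' values under alternatives, 173 kept their call, 37 lost it and 0 changed sign. For levels, *Ogdh* RPKM was 51.6 in control with total counts only, and 259.1 in control and 254.8 in AclyM-KO with its 5 transcripts summed, which can count shared reads again. *Mdh2* in control was 64.9 RPKM with total counts only. Total counts as the only scaling moved the median of all genes by 0.036.

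Replicate numbers are shared between groups, but the labels do not say what they pair. Correlations of deviations between same-numbered libraries were 0.09, 0.114 and -0.0466, and not every library correlated best with its own number. With the replicate number as a block, 1583 genes passed, 1 member (*Mdh2*) among them, and *Mdh1* was lost (0.22, adjusted p = 0.0580).

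*Acod1* had 136 to 233 counts per library and the widest interval of the members (folds of 0.773 to 1.39), and its AclyM-KO replicate 2 lay far from the other AclyM-KO libraries. Without that library the SE of its log2 fold change was 0.124 in place of 0.194.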
